A study of Mus musculus with 4 samples.

Results

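Osteoclasts, the multinucleated cells that resorb bone, form from cells of the monocyte and macrophage lineage under macrophage colony-stimulating factor and RANK ligand. RANK ligand binds its receptor RANK, and receptors that signal through ITAM adaptors add calcium signals, which together activate the transcription factor NFATc1. NFATc1 then drives genes for cell fusion, acid secretion and matrix digestion. A set of 9 genes that represents these steps was followed in mouse bone marrow-derived mesenchymal stem cells (mBMSCs) depleted of ZBP1. The genes are the receptors Tnfrsf11a, Oscar and Calcr, the regulator Nfatc1, the fusion genes Dcstamp, Ocstamp and Atp6v0d2, and the resorption enzymes Acp5 and Ctsk. They were taken by symbol from the 24346 rows of the expression table, and each of the 9 matched 1 row.

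The cells were primary mBMSCs from femoral marrow of wild-type mice aged 3 months (C57BL/6 in the labels, C57BL/6J in the study's methods), isolated by adherence with the nonadherent hematopoietic cells washed away. They were transfected with scrambled siRNA (siScr, 2 samples) or with siRNA against ZBP1 (siZBP1, 2 samples) in RNAiMAX, and RNA was collected 72 h later. All samples share the transfection and none was left untransfected. The labels do not say which of the ZBP1 siRNAs was used, nor whether duplicates came from separate animals or cultures, so p-values measure only the spread between these samples, which may be technical.

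Zbp1 itself, a sensor of Z-form nucleic acids, was at 86.0 and 62.0 FPKM (sequenced fragments scaled to transcript length and library size) in the siScr samples and at 11.5 and 11.6 FPKM in the siZBP1 samples. Its limma log2 fold change was -2.56 (standard error 0.16, adjusted p = 0.00322) and this call was lost when siZBP1 replicate 1 (log2 fold change -2.55, limma adjusted p = 0.0748) or siZBP1 replicate 2 (-2.57, adjusted p = 0.0654) was left out. The spacing of the lowest values gave rough depths of 14500000 and 20400000 fragments for the siScr samples and 10500000 and 18000000 fragments for the siZBP1 samples. The cultures also held macrophage transcripts. The summed level of 19 macrophage markers, of which 0 were listed at 0 in any sample, was 11369 and 12465 FPKM in siScr cells and 17148 and 16306 FPKM in siZBP1 cells. For 15 mesenchymal markers, with 0 listed at 0, the sums were 6023 and 4997 FPKM in siScr cells and 3583 and 3617 FPKM in siZBP1 cells. In RNA from such a mixture, fewer cells of a type and less RNA per cell cannot be told apart.

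The 9 genes fell into a well expressed and a barely detected part. Atp6v0d2 had the highest mean level over the 4 samples at 64.4 FPKM, above 93.2% of the genes detected in any sample. Ctsk followed at 34.9 FPKM, Nfatc1 at 19.6 FPKM, Tnfrsf11a between 11.0 and 12.8 FPKM and Acp5 at 1.71 FPKM. Between each of these neighbours the lowest sample of the higher gene exceeded the highest sample of the lower gene. Dcstamp (0.411 FPKM) came next, then Oscar (0.217 FPKM) and Ocstamp (0.210 FPKM), where Oscar overlapped with both, and Calcr was last at 0.00596 FPKM. Thus 4 of the genes were above 10 FPKM in every sample, while 4 stayed under 1 FPKM in every sample. FPKM is scaled to transcript length, so these levels can be set beside each other.

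**Figure D1:**
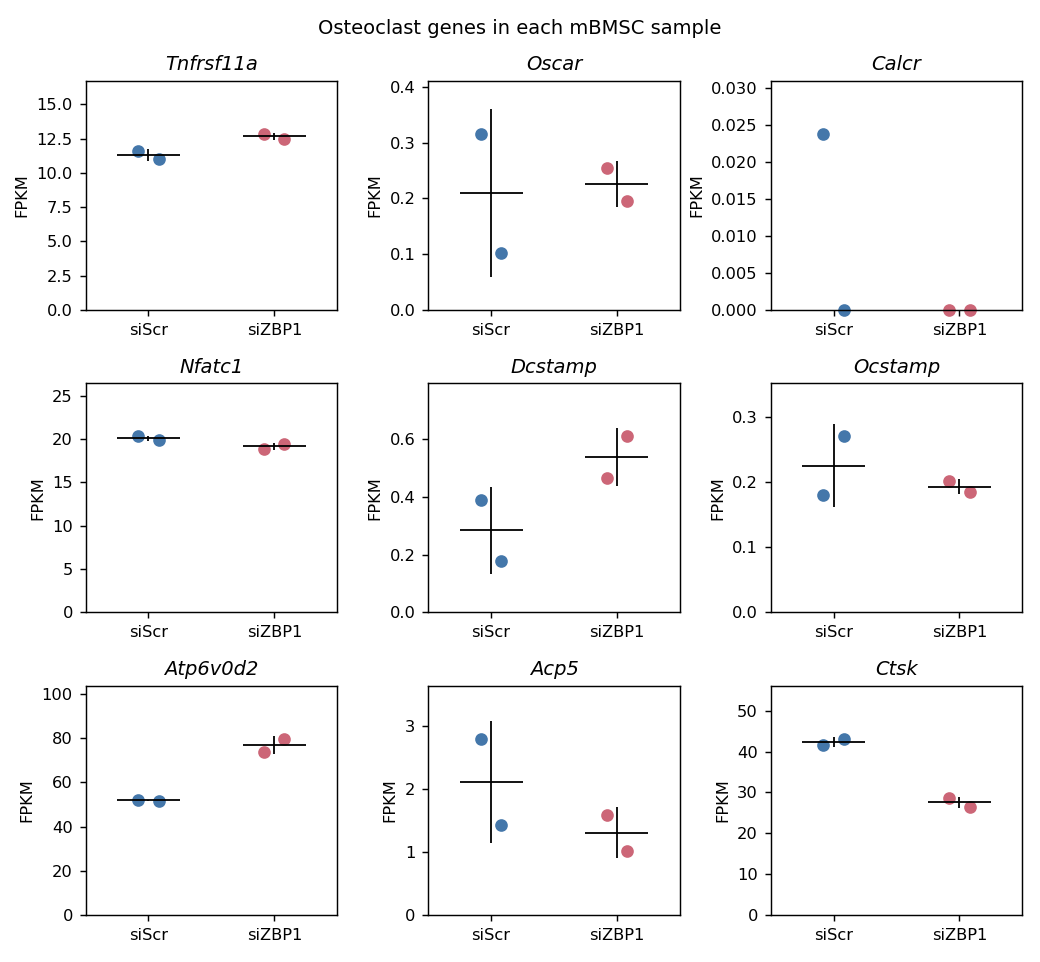
FPKM of each of the 9 osteoclast genes (vertical axes, linear from 0) in the siScr and siZBP1 samples. Points are samples, horizontal lines group means and vertical lines ± SD (n = 2), which are left out for Calcr. The groups stand clearly apart for Atp6v0d2, higher in siZBP1 cells, and for Ctsk, lower in siZBP1 cells.

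To ask which of these genes responded to ZBP1 depletion, limma was fitted to log2(FPKM + 1) of the 11959 genes whose mean over the samples reached 1 FPKM, and p-values were adjusted over all of them by the Benjamini-Hochberg method. Of the 9 genes, 5 passed this filter. Ctsk was lower and Atp6v0d2 was higher in siZBP1 cells, and Tnfrsf11a, Nfatc1 and Acp5 did not pass an adjusted p of 0.05. Over all genes tested, 14.8% were called lower and 13.5% higher, 28.3% in either direction. The 2 calls among 5 genes are therefore a description of Ctsk and Atp6v0d2 and not a result about the set. Samples of the 2 groups were fully separated for 4 of the 5 genes (Tnfrsf11a, Nfatc1, Ctsk and Atp6v0d2), beside 68.4% of all genes tested. By the ratio of group means, without a test, Acp5 and Ctsk were over 1.5-fold lower and Dcstamp over 1.5-fold higher, out of 8 genes with both means above 0. Among all 16281 such genes, 13.8% were over 1.5-fold lower and 10.7% higher. In place of 2 lower and 1 higher, the counts were 1 and 2 without siScr replicate 1, 2 and 0 without siScr replicate 2, 2 and 2 without siZBP1 replicate 1, and 0 and 1 without siZBP1 replicate 2.

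Tnfrsf11a encodes RANK, the receptor through which RANK ligand starts the program. Its level was 11.6 and 11.0 FPKM in siScr cells and 12.8 and 12.5 FPKM in siZBP1 cells. Both siZBP1 samples were above both siScr samples, but by little. The limma log2 fold change was 0.15, with a 95% interval from -0.01 to 0.31 (adjusted p = 0.137). An increase of more than 0.31 on this scale lies outside the interval.

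Oscar encodes a collagen-binding receptor that signals through the ITAM adaptor Fcer1g. It was at 0.316 and 0.103 FPKM in siScr cells and at 0.254 and 0.196 FPKM in siZBP1 cells. The siZBP1 samples lay between the siScr samples. At the estimated depths and the longest annotated transcript, these values correspond to roughly 4 to 8 fragments per sample, so that only a large difference could have been seen. With the filter lowered to a mean of 0.1 FPKM, the limma log2 fold change of Oscar was 0.02, with a 95% interval from -0.28 to 0.33 (adjusted p = 0.907). At levels this low, the 1 added to FPKM before taking logs shrinks changes. The interval therefore does not bound the fold change of FPKM itself.

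Calcr encodes the calcitonin receptor, a marker of mature osteoclasts. It was at 0.0239 FPKM in siScr replicate 1, about 1.3 fragments by the same estimate, and listed at 0 in siScr replicate 2 and in both siZBP1 samples. No difference in Calcr was detectable at this depth, and no fold change is given for it.

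Nfatc1, the central transcription factor of osteoclast formation, was at 20.3 and 19.9 FPKM in siScr cells and at 18.9 and 19.4 FPKM in siZBP1 cells. The siZBP1 samples were both slightly below the siScr samples. The limma log2 fold change was -0.07, with a 95% interval from -0.20 to 0.07 (adjusted p = 0.384). These values rest on an estimated 950 to 1944 fragments per sample. Of the osteoclast genes tested, Nfatc1 had the smallest change.

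Dcstamp encodes a membrane protein required for the fusion of osteoclast precursors. It was at 0.390 and 0.178 FPKM in siScr cells and at 0.467 and 0.610 FPKM in siZBP1 cells, with means of 0.284 ± 0.150 and 0.538 ± 0.101 FPKM (SD, n = 2 each). Both siZBP1 samples were above both siScr samples, and the ratio of the means was 1.90. The estimate behind these values is only 7 to 22 fragments per sample. With the filter lowered to a mean of 0.1 FPKM, the limma log2 fold change was 0.26, with a 95% interval from -0.06 to 0.59 (adjusted p = 0.196). The 1 added to FPKM shrinks this value and its interval as well.

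Ocstamp, which encodes a related fusion protein, was at 0.181 and 0.271 FPKM in siScr cells and at 0.202 and 0.185 FPKM in siZBP1 cells. The groups overlapped, and the estimated fragments were 8 to 20 per sample. With the lowered filter the limma log2 fold change was -0.04, with a 95% interval from -0.27 to 0.19 (adjusted p = 0.799). Because of the 1 added to FPKM, this interval does not bound the fold change of FPKM itself either.

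Atp6v0d2 encodes the d2 subunit of the membrane sector of the vacuolar proton pump, which acidifies the resorption space and is also needed for fusion. It was at 52.1 and 51.7 FPKM in siScr cells and at 74.0 and 79.8 FPKM in siZBP1 cells. The siScr samples differed by a factor of 1.01 and the siZBP1 samples by 1.08, and every siZBP1 sample was above every siScr sample. Means were 51.9 ± 0.302 and 76.9 ± 4.10 FPKM (SD, n = 2 each), a ratio of 1.48. The limma log2 fold change was 0.56 (standard error 0.05, 95% interval 0.42 to 0.69, adjusted p = 0.00543). With a siZBP1 sample left out the call was lost, with a limma adjusted p of 0.0748 without replicate 1 and 0.0696 without replicate 2, while the log2 fold change was 0.61 and 0.50. In those fits the calls over all genes also fell, to 23 lower and 22 higher without siZBP1 replicate 1 and to 38 lower and 22 higher without siZBP1 replicate 2.

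The paralog Atp6v0d1, which encodes the d1 subunit found in most cells, was at 125.0 and 123.4 FPKM in siScr cells and at 143.8 and 137.1 FPKM in siZBP1 cells. It rose as well (0.18 on the log2 scale, limma adjusted p = 0.0418). The level of Atp6v0d2 was 41.7% and 41.9% of that of Atp6v0d1 in the siScr samples, and 51.5% and 58.2% in the siZBP1 samples. The groups did not overlap in this ratio. A two-sided exact permutation test of the ratio gave p = 0.333 (n = 2 each), the smallest p that this design allows.

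Acp5 encodes tartrate-resistant acid phosphatase, the histochemical marker of osteoclasts. It was at 2.80 and 1.43 FPKM in siScr cells and at 1.60 and 1.02 FPKM in siZBP1 cells. The groups overlapped, because the higher siZBP1 sample exceeded the lower siScr sample. Replicates differed by a factor of 1.96 in siScr cells and 1.56 in siZBP1 cells, beside a ratio of 1.62 between the siScr and siZBP1 means. The limma log2 fold change was -0.41, with a 95% interval from -1.11 to 0.30 (adjusted p = 0.317). It ranged from -0.09 without siScr replicate 1 to -0.73 without siScr replicate 2, so that the size of the difference rests on siScr replicate 1. The estimated fragments were 24 to 59 per sample.

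Ctsk encodes cathepsin K, the protease that digests type I collagen in the resorption space and that some skeletal mesenchymal cells also express. It was at 41.5 and 43.1 FPKM in siScr cells and at 28.5 and 26.5 FPKM in siZBP1 cells. Replicates of a group differed by factors of 1.04 and 1.08, and every siZBP1 sample was below every siScr sample. Means were 42.3 ± 1.12 and 27.5 ± 1.42 FPKM (SD, n = 2 each), so that the siScr mean was 1.54 times the siZBP1 mean. The limma log2 fold change was -0.60 (standard error 0.06, 95% interval -0.75 to -0.46, adjusted p = 0.00543). The call was lost with a siZBP1 sample left out, with a limma adjusted p of 0.0748 without replicate 1 and 0.0713 without replicate 2, at log2 fold changes of -0.65 and -0.55.

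Ctsk and Atp6v0d2 thus moved in opposite directions. The ratio of Atp6v0d2 to Ctsk was 1.26 and 1.20 in the siScr samples and 2.59 and 3.01 in the siZBP1 samples. The mean ratio was 2.28 times as high in siZBP1 cells, and the groups did not overlap (two-sided exact permutation p = 0.333, n = 2 each, the smallest possible).

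**Figure D2:**
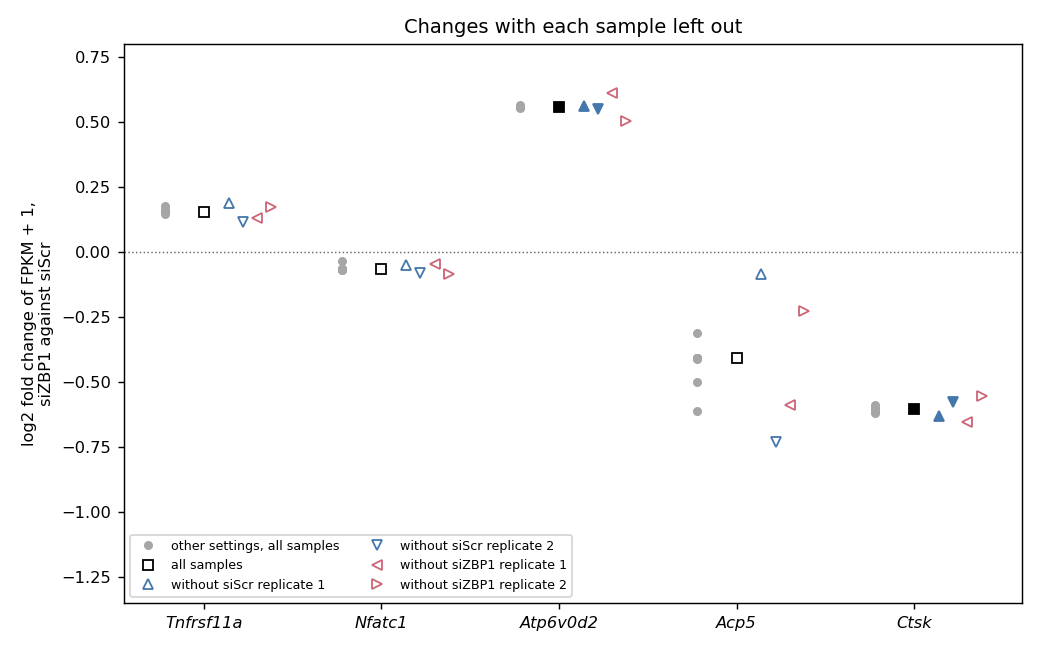
Limma log2 fold change of FPKM + 1, siZBP1 against siScr (vertical axis), for the 5 genes tested. Squares use all samples, grey circles are other settings with all samples, and triangles leave out 1 sample. Among squares and triangles, filled symbols have an adjusted p under 0.05. The values of Ctsk and Atp6v0d2 keep to a narrow band, and those of Acp5 spread from -0.73 to -0.09.

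Ctsk and Acp5 are known targets of NFATc1, which acts with PU.1, MITF and AP-1, so their promoters were searched for the words of these factors. RefSeq windows on GRCm38.p6, from 250 bases before to 50 bases after a gene start, were at hand for 5 of the 9 genes (Tnfrsf11a, Ctsk, Calcr, Oscar and Acp5, 8 windows in all). No entry was used for Nfatc1, Dcstamp, Ocstamp and Atp6v0d2. The words were GGAAA (NFAT core), GAGGAA (PU.1 core), TGANTCA (AP-1) and the E-boxes CACGTG and CATGTG (MITF), searched on both strands, and GAGGAA overlaps GGAAA where a further A follows. Of all 32851 windows of this length, 61.3% hold GGAAA, 28.3% GAGGAA, 7.81% TGANTCA, 7.15% CACGTG and 14.2% CATGTG. The matches of Ctsk, the gene that fell, and the GGAAA matches of Acp5 follow in 30 bases each on the strand of the gene, with the match in capitals, where TTTCC and TTCCTC are the words read on the other strand.

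Ctsk, NFAT core, chr3:95499197-95499226, plus strand: cccttatccagatTTTCCagccactgctgg

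Ctsk, PU.1 core, chr3:95498965-95498994, plus strand: gtcagacattttGAGGAAgaatggagacaa

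Ctsk, PU.1 core, chr3:95499140-95499169, plus strand: aaatgtgtgtccTTCCTCcctaacccctcc

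Acp5, NFAT core, chr9:22135897-22135926, minus strand: aggtggagagaaaGGAAAaagaagataaat

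Acp5, NFAT core, chr9:22131890-22131919, minus strand: aggattggggcggGGAAAccgaggcacccg

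Acp5, NFAT core, chr9:22130699-22130728, minus strand: cgccccagccccaTTTCCagttctggggaa

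Acp5, NFAT core, chr9:22130619-22130648, minus strand: aaaatgcatcatcTTTCCcaatgatgcact

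The window of Ctsk thus holds 1 GGAAA word, at the RefSeq gene start, and 2 GAGGAA words. The Acp5 windows belong to 3 alternative starts, each with GGAAA. Oscar also holds GGAAA and GAGGAA words, 1 of the Calcr windows holds GGAAA, and CATGTG has 1 match each in Oscar and in an Acp5 window. The Tnfrsf11a window holds none of the words searched. TGANTCA and CACGTG were in none of the 8 windows. With GGAAA in most promoters of the genome, its presence does not set these genes apart. The transcripts of the factors themselves were measured. Spi1, which encodes PU.1, was at 148 and 138 FPKM in siScr cells and at 155 and 159 FPKM in siZBP1 cells (limma log2 fold change 0.13, adjusted p = 0.121), and Mitf rose (0.26, adjusted p = 0.0349). Among the AP-1 genes of the RANK and M-CSF list below, only Fosl1 was called, and it fell (-0.62, limma adjusted p = 0.0375). Fosl1 was low, at 2.01 and 1.58 FPKM in siScr cells and at 0.872 and 0.748 FPKM in siZBP1 cells. Fos (0.16), Jun (0.07) and Junb (0.02) did not pass the threshold.

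In GENCODE M21 on GRCm38, Ctsk lies on the plus strand at chr3:95499256-95509362 with a single transcript of 1512 bases. Atp6v0d2 lies on the minus strand at chr4:19876841-19922605 with 2 annotated transcripts. Tnfrsf11a (chr1:105780718-105847981) has 3 transcripts, of which 1 codes for protein, and Acp5 (chr9:22126727-22135711) has 6. With 1 deposited value per gene, transcripts cannot be told apart.

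The list of RANK and M-CSF signalling genes runs from ligands and receptors to the kinases and transcription factors they act on. Of 19 tested, 5 were lower and 5 higher, with a median log2 fold change of 0.10 beside 0.0045 for all genes tested. Over all genes tested, 14.8% were lower and 13.5% higher. These shares stand beside the counts of this and the following lists, none of which was tested as a set. The decoy receptor Tnfrsf11b (osteoprotegerin) and the growth factor Csf1 fell. Tnfrsf11b was at 19.1 and 21.3 FPKM in siScr cells and 8.12 and 7.20 FPKM in siZBP1 cells (limma log2 fold change -1.29, adjusted p = 0.00343). Csf1 was at 96.0 and 97.2 FPKM in siScr cells and 45.3 and 46.4 FPKM in siZBP1 cells (-1.06, adjusted p = 0.00185). Il34, the other ligand of the M-CSF receptor, fell as well (-0.64, adjusted p = 0.0367). Tnfsf11, which encodes RANK ligand, was under the filter at 0.0325 and 0.169 FPKM in siScr cells and 0 and 0.0862 FPKM in siZBP1 cells. The receptor Csf1r rose from 467 and 470 FPKM to 584 and 558 FPKM (0.28, adjusted p = 0.0147).

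Of the ITAM and calcium signalling genes, which include receptors, adaptors, kinases and calcineurin genes, 0 were lower and 7 higher among 14 tested, with a median of 0.20. The kinase Syk had the largest change of the list (limma log2 fold change 0.59, adjusted p = 0.00585), followed by the adaptor Tyrobp (0.49, adjusted p = 0.00779) and the exchange factor Vav3 (0.45, adjusted p = 0.0330). Tyrobp is also a macrophage marker. The calcineurin genes, whose product activates NFATc1, differed among themselves. Ppp3ca rose (0.31, adjusted p = 0.0113), while Ppp3cb (-0.09, adjusted p = 0.462) and Ppp3r1 (-0.08, adjusted p = 0.201) did not pass the threshold.

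Of the other genes of the resorption machinery, 1 was lower and 7 were higher among 13 tested, with a median of 0.18. The integrin subunits Itgb3 (limma log2 fold change 0.84, adjusted p = 0.0380) and Itgav (0.44, adjusted p = 0.00524), which form the attachment receptor of osteoclasts, and the pump subunit Atp6v1a (0.38, adjusted p = 0.00884) had the largest changes. Only Itgb3 of this list had a larger rise than Atp6v0d2. The chloride channel gene Clcn7 fell (-0.29, adjusted p = 0.0152). Car2 and Mmp9, both abundant in mature osteoclasts, were under the filter, with 0.112 and 0.109 FPKM in siScr cells against 0.154 and 0.285 FPKM in siZBP1 cells for Car2. Mmp9 was at 0.205 and 0.0695 FPKM in siScr cells and at 0.260 and 0.239 FPKM in siZBP1 cells. Car2, Mmp9, Calcr, Oscar, Dcstamp and Ocstamp were thus under 1 FPKM in all samples, whereas Atp6v0d2, Ctsk, Nfatc1 and Tnfrsf11a were above 10 FPKM in all samples. Itgb3 was at 5.41 and 8.44 FPKM in siScr cells and at 12.9 FPKM in both siZBP1 samples.

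Of the other fusion genes, 3 were lower and 5 higher among 9 tested, with a median of 0.20. Adam12 rose from 4.29 and 4.63 FPKM to 13.6 and 13.5 FPKM (limma log2 fold change 1.41, adjusted p = 0.00242), and P2rx7 rose (0.62, adjusted p = 0.0259), while the podosome scaffold gene Sh3pxd2a fell (-0.52, adjusted p = 0.0111). Of the repressors of osteoclast formation, 0 were lower and 1 was higher among 9 tested, with a median of 0.11. That gene was Nfkbia, an inhibitor of NF-κB (limma log2 fold change 0.32, adjusted p = 0.0114). Cyld was at 0.24 (adjusted p = 0.0522) and Rcan1 at 0.15 (adjusted p = 0.193). Over all lists, without siScr replicate 1 the calls were 8 lower and 21 higher in place of 14 and 35, and they dropped to 0 and 0 when siZBP1 replicate 1 was left out and to 1 and 0 when siZBP1 replicate 2 was left out.

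**Figure D3:**
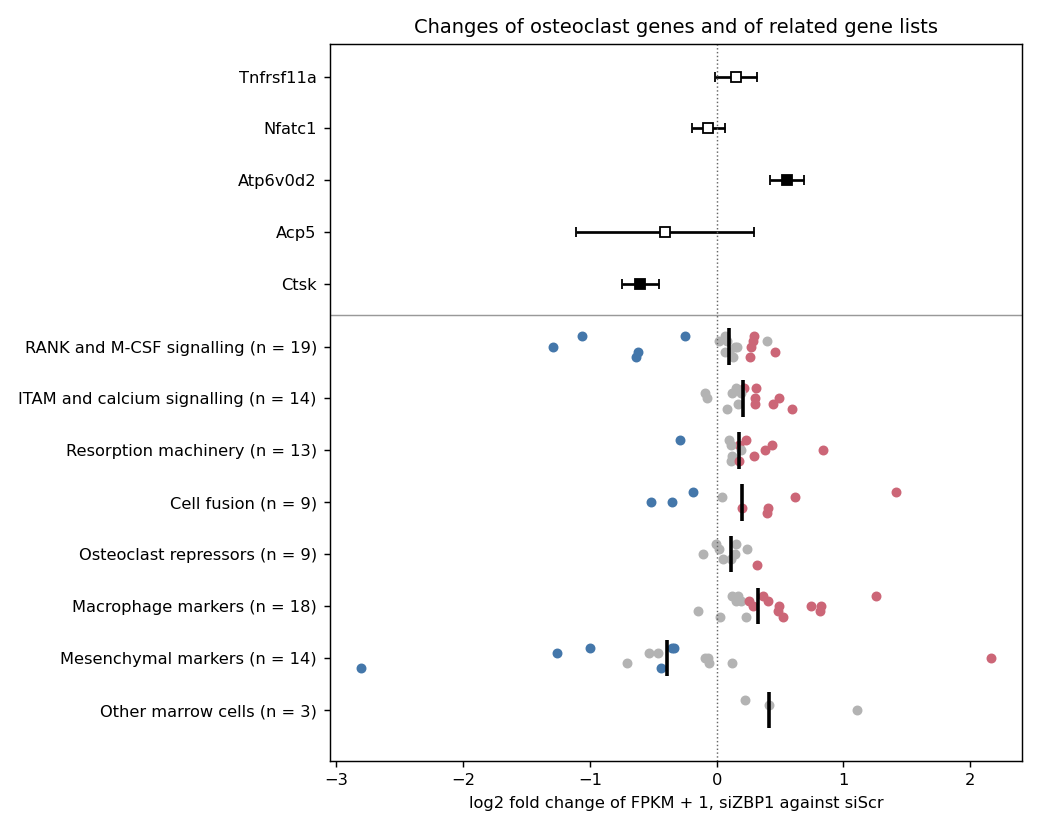
Limma log2 fold change of FPKM + 1, siZBP1 against siScr (horizontal axis). Squares with 95% intervals are the 5 osteoclast genes tested, filled where the adjusted p is under 0.05. Points are the tested genes of each list, blue where lower, red where higher and grey where not called, and black bars are list medians. Atp6v0d2 at 0.56 lies to the right of most list genes, and Ctsk at -0.60 is below all tested genes of the ITAM, resorption, fusion, repressor and macrophage lists.

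The markers of the cell types in the culture moved with these groups. Of the macrophage markers, 0 were lower and 11 higher among 18 tested, with a median log2 fold change of 0.33, led by Mrc1 (1.25, limma adjusted p = 0.00789), Lyz1 (0.82, adjusted p = 0.0235) and Lyz2 (0.81, adjusted p = 0.0191). Atp6v0d2 lay within their range, with 4 of the 18 above its 0.56. Of the mesenchymal markers, 6 were lower and 1 higher among 14 tested, with a median of -0.39. Cxcl12 (-2.81, adjusted p = 0.00210) and Col1a1 (-1.26, adjusted p = 0.00480) fell and Nt5e rose (2.16, adjusted p = 0.00954). Their range, from -2.81 to 2.16, was wide and held all 5 osteoclast genes tested, so lying within it does not set Ctsk apart. Of the 14, 4 lay below the -0.60 of Ctsk and 1 above the 0.56 of Atp6v0d2. Of a list for other marrow cells, 3 genes were tested and 0 called, S100a8 (1.11, limma adjusted p = 0.239), Pf4 (0.42, 0.0742) and Kdr (0.22, 0.176). S100a8 was at 0.434 and 0.322 FPKM in siScr cells and at 0.597 and 4.52 FPKM in siZBP1 cells. Its value and its passing of the filter thus rest on siZBP1 replicate 2. Each sample listed 6 to 8 of the 14 genes at 0, and Cd3g, Mpo, Elane and S100a9 were at 0 in every sample.

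Levels were therefore also set relative to these markers, a comparison chosen after the values had been seen. Per 1000 FPKM of summed macrophage markers, Atp6v0d2 was at 4.59 and 4.15 FPKM in siScr cells and at 4.31 and 4.89 FPKM in siZBP1 cells. These groups overlapped, with means of 4.37 ± 0.309 and 4.60 ± 0.409 (SD, n = 2 each). The sum is led by Lyz2, however, and the result depended on the summary. Without Lyz1 and Lyz2, Atp6v0d2 was at 6.41 and 6.27 in siScr cells and 7.14 and 7.91 in siZBP1 cells per 1000 FPKM, without overlap. That smaller sum is led by Ctss, at 2101 and 2063 FPKM in siScr cells and 1872 and 1884 FPKM in siZBP1 cells. Ctss thus went the other way, though it was not called (limma log2 fold change -0.15, adjusted p = 0.0818). The ratio without Ctss was not computed. As log2(FPKM + 1) minus the mean log2 level of the markers, the difference of Atp6v0d2 was 0.17, also without overlap, beside 0.56 for the level itself.

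Per 1000 FPKM of summed mesenchymal markers, Ctsk was at 6.90 and 8.63 FPKM in siScr cells and at 7.97 and 7.33 FPKM in siZBP1 cells. Here too the groups overlapped, with means of 7.76 ± 1.23 and 7.65 ± 0.447 (SD, n = 2 each). This sum is led by Col1a1 and Col1a2, however. Col1a1 had means of 2793 FPKM in siScr cells and 1160 FPKM in siZBP1 cells, and Col1a2 of 1949 and 1820 FPKM. The overlap thus leans on the fall of Col1a1, and the ratio without Col1a1 was not computed. As log2(FPKM + 1) minus the mean log2 level of the mesenchymal markers, the difference of Ctsk was -0.18, without overlap, beside -0.60 for the level itself. Set against the macrophage markers instead, the level of Ctsk was at 3.65 and 3.46 in siScr cells and at 1.66 and 1.63 in siZBP1 cells per 1000 FPKM, a larger separation than for its level alone. Nfatc1, nearly level in FPKM, was at 1.79 and 1.59 in siScr cells and at 1.10 and 1.19 in siZBP1 cells per 1000 FPKM of macrophage markers. Tnfrsf11a on the same scale was at 1.02 and 0.881 in siScr cells and at 0.749 and 0.765 in siZBP1 cells, so that its direction turned. Per 1000 FPKM of mesenchymal markers, however, both genes were higher in siZBP1 cells, without overlap. Tnfrsf11a was at 1.93 and 2.20 in siScr cells and at 3.59 and 3.45 in siZBP1 cells. Nfatc1 was at 3.37 and 3.98 in siScr cells and at 5.27 and 5.38 in siZBP1 cells. The direction thus depended on the marker list. The two-sided exact permutation p was 0.333 for each of these ratios without overlap, the smallest possible with n = 2 each. The part of cell composition in the changes of Atp6v0d2 and Ctsk was not tested.

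**Figure D4:**
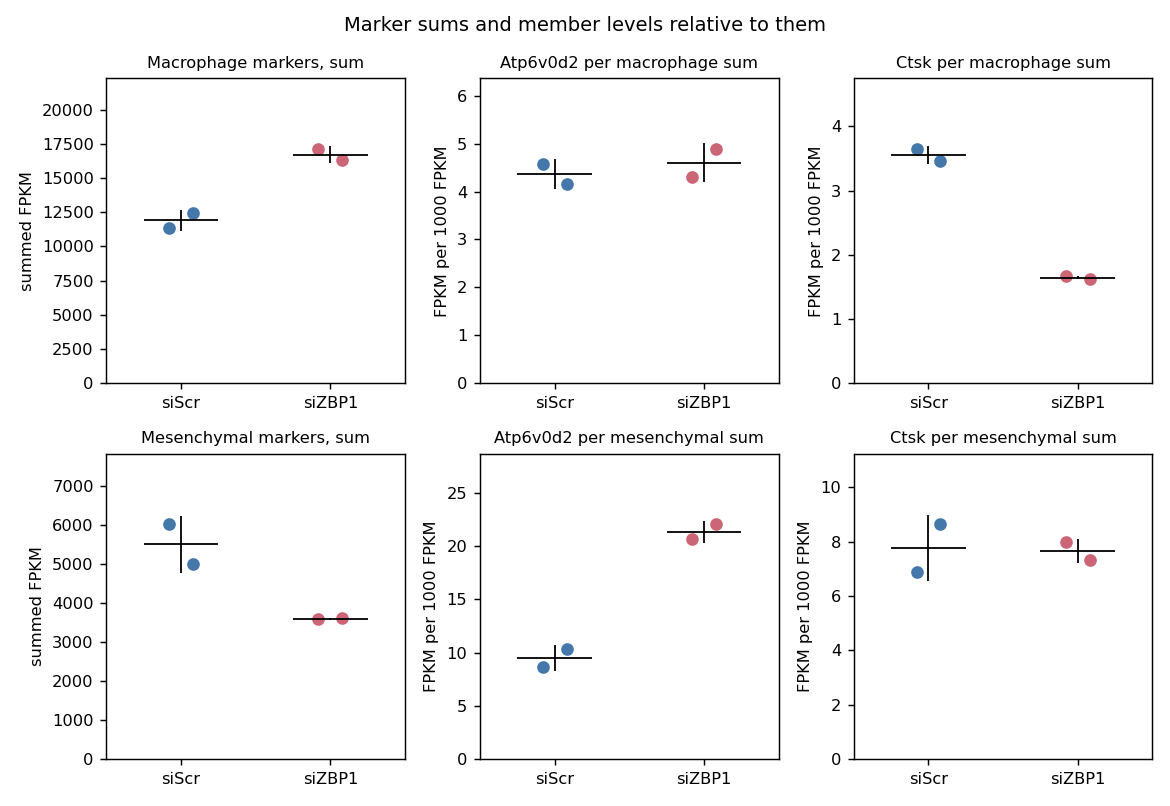
Summed FPKM of macrophage markers (top left) and mesenchymal markers (bottom left), and the levels of Atp6v0d2 and Ctsk per 1000 FPKM of each sum. Points are samples, horizontal lines group means and vertical lines ± SD (n = 2), with all axes from 0. The groups overlap for Atp6v0d2 per macrophage sum and for Ctsk per mesenchymal sum, and stand apart in the other panels. The macrophage sum is led by Lyz2 and the mesenchymal sum by Col1a1 and Col1a2. Relative to the mean log2 level of the markers instead of the sum, neither of these overlaps was seen.

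Among 96 tested genes of the lists, those whose log2 profile over the 4 samples was most like that of each osteoclast gene were found by the root mean square distance of the centred values. For Atp6v0d2 they were the complement genes C1qc (distance 0.058) and C1qb (0.064). For Ctsk they were Sh3pxd2a (0.092) and Fosl1 (0.097), for Tnfrsf11a Plekhm1 (0.019) and Trem2 (0.024), and for Nfatc1 Ppp3r1 (0.023) and Socs3 (0.040). Acp5 had no close match, with Ly6a (0.14) and Pdgfra (0.16) nearest. These distances are a description over 4 samples.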

How the data were processed

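RNA-seq of 4 mBMSC samples was analysed, 2 siScr and 2 siZBP1. The authors deposited FPKM values per gene and sample with group means, which equal the replicate means. Libraries were made with the TruSeq kit and reads mapped with TopHat 2.0.12 to mm10. The study's methods name HTSeq for the FPKM values and the submitters' processing notes name Cufflinks, and the annotation and filters are not given in the sources used here. Some rows, 103 in number, join several symbols, none of them an osteoclast gene.

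Depth was estimated from the lowest values of genes with 1 GENCODE M21 transcript of 1000 to 4000 bases, as the most frequent product of FPKM and length in kilobases. No counting error was computed from it.

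Genes whose mean reached 1 FPKM were tested on log2(FPKM + 1) in limma 3.58.1 under R 4.3.3, with a mean-variance trend, two-sided. Benjamini-Hochberg adjustment was over all genes at 0.05. The fit was tested on simulated data with noise at the fitted variance trend and changes larger than those of Atp6v0d2 and Ctsk. It therefore does not bear on calls of their size. A pseudocount of 1 understates changes of low genes. With 2 samples against 2, an exact permutation test cannot give p below 0.333. Python 3.11.15 with scipy 1.17.1 was used. Alternatives were other pseudocounts, filters, variance models and scalings, a replicate block and leaving out each sample.

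The osteoclast genes and all lists were chosen with earlier results of these data known. Named are all 9 osteoclast genes, Zbp1, the 3 genes of each list with the largest absolute change, list genes needed beside an osteoclast gene, and the nearest profiles. Csf1r, Tyrobp and Cd44 are each in 2 lists. Of the list symbols, Emr1, Lilrb4 and Ly6g matched no row.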

Additional observations from a re-analysis of the deposited data

How the results depend on the processing

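Under the 10 settings with all samples, the limma log2 fold change stayed between 0.55 and 0.56 for Atp6v0d2 and between -0.62 and -0.59 for Ctsk, each call held, and 0 values of the 5 osteoclast genes tested changed sign. With a replicate block, 1654 genes were lower and 1465 higher, and 1 osteoclast gene was called in each direction. The replicate numbers share only a number, with a correlation of -0.063 between the groups' replicate differences over 11959 genes.

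With a sample left out, limma called between 23 and 1297 genes lower and between 22 and 1019 higher over all genes (760 and 518 without siScr replicate 1, 1297 and 1019 without siScr replicate 2), from 0 to 1 in each direction for the osteoclast genes, and from 0 to 13 lower and 0 to 27 higher over the lists. The lone remaining sample of a group was taken to have the spread of the intact group. Over 1.5-fold, between 2074 and 2395 of all genes were lower and between 1570 and 1889 higher, and from 0 to 2 in each direction for the osteoclast genes.

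The counts over 1.5-fold depended on low genes and on the limit. With a mean FPKM of at least 1 they were 1035 lower and 503 higher over all genes, with 2 osteoclast genes lower and 0 higher. With 1 added to both means they were 937 and 407, with 1 osteoclast gene lower and 0 higher. At 2-fold they were 1252 and 877, with 0 osteoclast genes in either direction. Depth limits Calcr, Oscar, Ocstamp and Dcstamp most, and Acp5 in part.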
